A study of Mus musculus with 6 samples.

Results

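Glucose is broken down to pyruvate in the steps of glycolysis, and the liver can run the path in the other direction, gluconeogenesis, through a few enzymes of its own. Most steps have several enzyme forms encoded by separate genes, and the adult hepatocyte is known for the transporter GLUT2, the liver phosphofructokinase, the liver pyruvate kinase and the enzymes of glucose release. Liver tumors are known to carry forms found in other tissues instead, such as GLUT1, hexokinase 2, aldolase A and the PKM pyruvate kinase, with lactate dehydrogenase A turning pyruvate into lactate. The levels of 36 genes of these steps were taken from the RPKM table of RNA-seq of mouse liver tumor cell lines. RPKM is the number of reads on a gene per kilobase of transcript, scaled to the reads of the library. The genes were chosen by symbol, whatever their level, and all 36 were found among the 20856 genes with values.

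The study compared 6 lines grown out of liver tumors of young adult female C57BL/6 mice. The tumors had been started by hydrodynamic injection of a Myc transposon together with a px330 plasmid that carried Cas9 and a guide RNA against Trp53 (Myc;sgp53/Cas9, here sgTrp53, 3 lines) or against Kmt2c, the gene of the histone methyltransferase MLL3 (Myc;sgMll3/Cas9, here sgKmt2c, 3 lines). All 6 lines therefore carry the Myc transposon, neither genotype has both genes intact, and no normal liver was sequenced with them. The lines were untreated and kept in complete DMEM on collagen-coated plates until no fibroblasts were seen, and sgKmt2c lines 2 and 3 are labeled 2A and 2T1.

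The libraries held 5312182 to 6878625 reads on genes in the sgTrp53 lines and 3680068 to 4704539 in the sgKmt2c lines, so that genes of few reads were measured less precisely in the latter. Trp53 read 17.2, 17.6 and 19.4 RPKM in the sgTrp53 lines against 92.2, 124 and 121 RPKM in the sgKmt2c lines (adjusted p = 0.0140, limma) and was thus lower in each line labeled with the Trp53 guide. Kmt2c overlapped between the genotypes (18.4 to 24.2 against 9.51 to 25.0 RPKM), and a small deletion made by Cas9 need not lower a transcript. Alb, the defining product of hepatocytes, read 0.644 to 4.36 RPKM in the 6 lines, near 0 in all of them. The sgKmt2c line 1 stood apart from the other 5 lines. The summed level of 14 hepatocyte markers was 5694 RPKM in that line and 34.7 to 367 RPKM in the others, the sum of 7 biliary and progenitor markers was 3534 against 176 to 1168 RPKM, and the sum of 10 fibroblast and stellate markers was 0.282 against 18.7 to 996 RPKM. Short transcript lengths in the deposited table weigh on these sums, and with the longest protein-coding transcript of each gene in GENCODE vM1 they were 612 against 26.3 to 138 RPKM, 2711 against 176 to 1089 RPKM and 0.253 against 15.5 to 548 RPKM. Apob (4385 RPKM) and Hnf4a (1186 RPKM) carried most of the hepatocyte sum of sgKmt2c line 1 by the deposited lengths. Krt19 (1866 RPKM) and Krt7 (990 RPKM) carried most of its biliary sum. The sgKmt2c line 1 held the highest value of the 6 lines for 9 of the 14 hepatocyte markers, while Tat and Cyp2e1 were at 0 there and Alb was at 4.36 RPKM. It was highest for 3 of the 7 biliary and progenitor markers and lowest for Cd24a (65.2 RPKM).

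In the promoters of the 36 genes, the letters CACGTG (the E-box known to be bound by MYC) and ACGTG or GCGTG (the core of the hypoxia response element) were searched on both strands, in the first window listed per gene by RefSeq on GRCm38.p6, from 250 bases before the start to 50 after it. Of 35 members with a window, 6 held CACGTG (17.1%), as did 7.24% of all 27025 promoters. ACGTG was in 14 members (40%, against 19.7% of all promoters) and GCGTG in 16 (45.7%, against 32.5%). A CACGTG also counts as ACGTG on each strand, and the 3 shares were not adjusted for base composition. The 250 bases before the RefSeq start are printed for 4 members because their levels carry the comparisons given further on: Ldha as the lactate dehydrogenase of every line, Pgk1 as a gene that was higher in each sgKmt2c line, and Slc16a3 and Ldhb as those with the lowest p-values. For Ldha, the first of 2 starts listed, and for Slc16a3 this stretch lies within the gene bounds of the deposited table, which begin further upstream. Capitals mark the matches on either strand.
Ldha (chr7:46845554-46845803, plus strand): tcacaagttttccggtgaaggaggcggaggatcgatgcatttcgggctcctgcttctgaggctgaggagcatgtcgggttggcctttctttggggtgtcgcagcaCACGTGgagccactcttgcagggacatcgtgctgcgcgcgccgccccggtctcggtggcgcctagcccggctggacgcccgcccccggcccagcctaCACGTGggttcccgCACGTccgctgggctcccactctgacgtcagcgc
Pgk1 (chrX:106186850-106187099, plus strand): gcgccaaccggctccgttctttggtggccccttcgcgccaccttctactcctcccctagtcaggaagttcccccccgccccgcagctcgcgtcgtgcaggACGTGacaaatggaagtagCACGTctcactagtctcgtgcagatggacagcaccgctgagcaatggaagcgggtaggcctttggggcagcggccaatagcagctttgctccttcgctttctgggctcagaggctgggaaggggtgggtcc
Slc16a3 (chr11:120948817-120949066, plus strand): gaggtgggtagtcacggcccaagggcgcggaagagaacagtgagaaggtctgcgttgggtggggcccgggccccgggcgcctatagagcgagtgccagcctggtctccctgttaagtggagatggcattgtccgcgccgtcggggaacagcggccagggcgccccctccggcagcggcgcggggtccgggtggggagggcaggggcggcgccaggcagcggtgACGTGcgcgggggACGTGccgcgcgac
Ldhb (chr6:142507958-142508207, minus strand): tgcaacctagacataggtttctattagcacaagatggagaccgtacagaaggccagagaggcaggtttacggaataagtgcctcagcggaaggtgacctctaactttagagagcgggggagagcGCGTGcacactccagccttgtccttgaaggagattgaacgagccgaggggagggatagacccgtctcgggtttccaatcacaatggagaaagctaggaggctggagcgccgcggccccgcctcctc
Ldha held 2 CACGTG sites and Pgk1 and Slc16a3 held 2 ACGTG matches each outside any CACGTG, whereas Ldhb held 1 GCGTG. These are matches of letters in a window and were not tied to the levels below.

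The 36 genes took 1.08%, 1.04% and 1.02% of the reads on genes in the sgTrp53 lines and 1.09%, 1.01% and 1.37% in the sgKmt2c lines. The total overlapped between the genotypes (1.05% ± 0.0307 against 1.16% ± 0.187, SD, n = 3 lines each, p = 0.5, exact two-sided permutation test, where 3 lines against 3 cannot go below 0.1). A small set of abundant enzymes made up most of it. The 8 genes of lower glycolysis, from glyceraldehyde-3-phosphate to pyruvate, took 0.595% to 0.746% of the reads of a line, and the 4 lactate genes took 0.159% to 0.286%.

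By the median over the 6 lines, Eno1 (2943 RPKM), Ldha (1592 RPKM), Pkm (1182 RPKM), Aldoa (472 RPKM) and Gapdh (372 RPKM) stood highest, followed by Tpi1 (287 RPKM), Gpi1 (232 RPKM) and Pgk1 (215 RPKM). The first places depend on the transcript length by which the reads were divided. The deposited table divides Eno1 by 519 bases and Gapdh by 3289, where the longest protein-coding transcripts in GENCODE vM1 have 2027 and 1420 bases. With those longest lengths the order was Pkm (1294 RPKM), Gapdh (861 RPKM), Ldha (822 RPKM), Eno1 (754 RPKM) and Aldoa (460 RPKM). The lengths differed by more than 1.5 times for 10 of the 36 members (27.8%), against 15.2% of the 16705 genes matched. The ratio of the RPKM of 1 gene between lines does not depend on the lengths. The fits on log2(RPKM + 1) and the filter at 1 RPKM used further on do depend on them and were not repeated with the longest lengths. At the other end, G6pc, Pck1 and Fbp1 had a median of 0 RPKM, and Slc2a2 (0.0652 RPKM) and Slc2a3 (0.147 RPKM) stood just above them. The gene bodies of 13 members overlap another gene of the table, and Eno1, Gapdh, Ldha, Aldoa and Pgk1 have near-identical pseudogene copies, so their reads may be shared with those. The heat map of all members by line shows this order within each role.

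**Figure D1:**
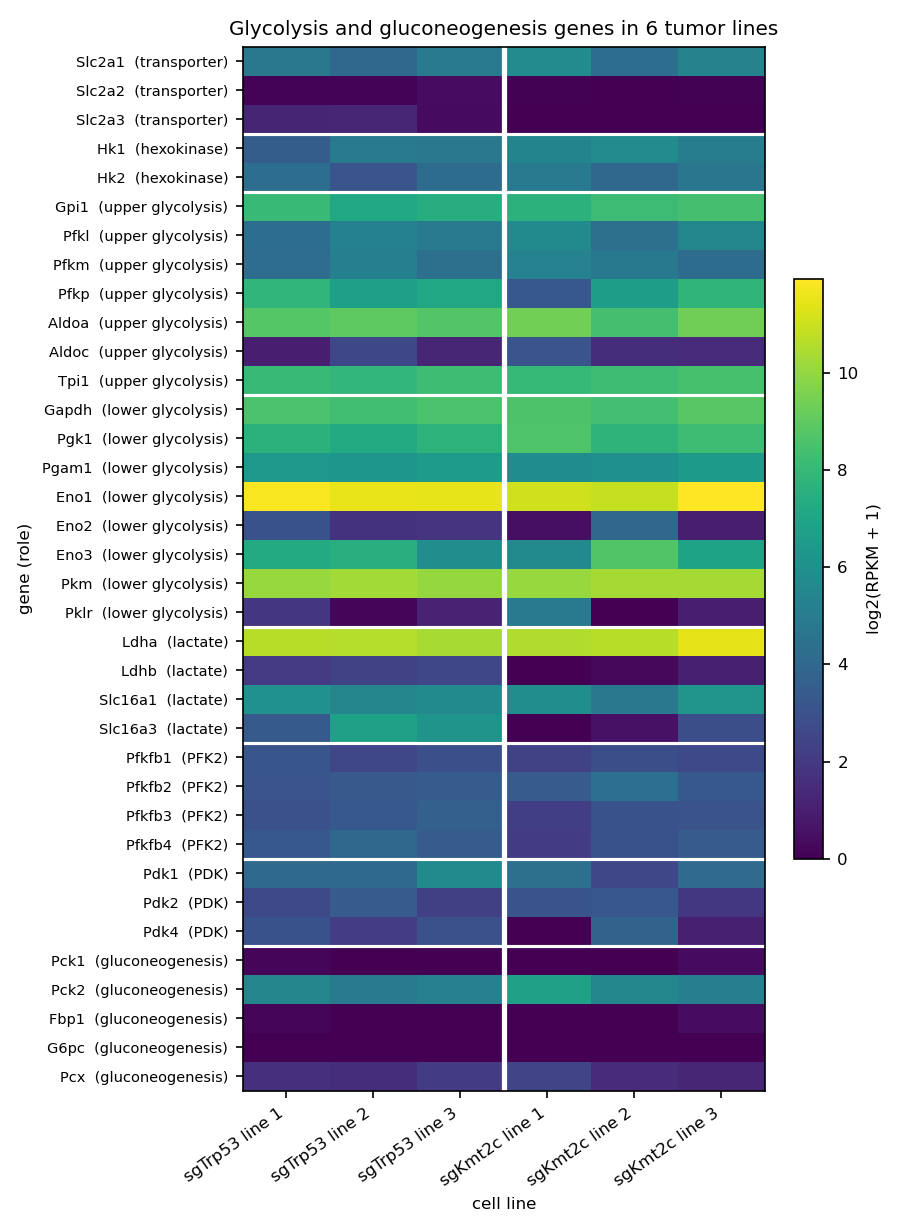
Level of each of the 36 members, log2(RPKM + 1) by color, in the 3 sgTrp53 and 3 sgKmt2c lines (columns), with the genes in rows by role. Eno1, Ldha, Pkm, Aldoa and Gapdh are bright in all 6 lines, and G6pc, Pck1, Fbp1 and Slc2a2 are dark in all 6.

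The choice between liver and tumor forms was described as the percent of a family's summed RPKM in each line. Of 7 families whose liver form was measured, 4 had that form at under 10% in every line. At the entry of glucose, the liver transporter GLUT2 (Slc2a2) read 0.0883, 0.101 and 0.313 RPKM in the sgTrp53 lines and 0.0381, 0 and 0.0420 RPKM in the sgKmt2c lines, which is 3, 3 and 12 reads against 1, 0 and 1. GLUT1 (Slc2a1), the transporter of most growing cells, read 26.1, 15.2 and 29.8 RPKM against 53.1, 19.1 and 39.1 RPKM and made up 90.9% to 100% of the 3 transporters. GLUT3 (Slc2a3), known from neurons and white blood cells, read 1.37, 1.42 and 0.293 RPKM in the sgTrp53 lines and had no read in any sgKmt2c line. All lines thus carried GLUT1 as the main transcript. By the mean of the sgTrp53 lines, GLUT3 was at least 5.66-fold lower in the sgKmt2c lines, taking 3 reads per library as the least that counts. That bound does not hold for each line. The sgTrp53 line 3 had 8 reads (0.293 RPKM), and 3 reads came to 0.1815 RPKM on average in the sgKmt2c lines. Neither GLUT2 nor GLUT3 passed the filter on low values.

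For the first phosphorylation, hexokinase 1 (Hk1), found in most tissues, read 10.6, 29.4 and 26.4 RPKM in the sgTrp53 lines and 40.2, 53.1 and 32.1 RPKM in the sgKmt2c lines. Hexokinase 2 (Hk2), known as a tumor and muscle form, read 18.9, 7.84 and 17.8 RPKM against 28.7, 14.7 and 25.0 RPKM. Hk1 led Hk2 in 5 of the 6 lines, the exception being sgTrp53 line 1, in which Hk2 made up 62.9% of the 4 hexokinases given here. Hkdc1, a hexokinase known from epithelia, read 46.4 RPKM in sgKmt2c line 1, where it was 40.2% of the 4, and at most 0.931 RPKM in the other 5 lines. Hk3 read at most 0.225 RPKM. Reads on Hk1 and Hk2 together took 0.0150%, 0.0169% and 0.0211% of a library in the sgTrp53 lines and 0.0331%, 0.0309% and 0.0276% in the sgKmt2c lines, without overlap (p = 0.1, exact two-sided permutation test, the smallest possible). The other 7 roles had exact p-values of 0.2 to 1, and adjusted over the 8 roles that of the hexokinases was 0.64.

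In phosphofructokinase, the committed step, the liver form had a part in every line. Pfkl, that form, read 18.8, 37.3 and 29.7 RPKM in the sgTrp53 lines and 51.0, 20.2 and 43.3 RPKM in the sgKmt2c lines. Pfkm, the muscle form, read 18.3, 34.9 and 20.6 against 37.6, 27.0 and 17.8 RPKM. Pfkp, the platelet form often raised in tumors, read 233, 106 and 142 RPKM in the sgTrp53 lines and 8.66, 102 and 223 RPKM in the sgKmt2c lines. The low value belongs to sgKmt2c line 1, in which Pfkp was 8.91% of the family and Pfkl 52.4%, whereas Pfkp was 59.5% to 86.3% and Pfkl 6.96% to 20.9% in the other 5. These shares lean on a Pfkp length of 931 bases. With the longest length of 4145 bases, Pfkp was 2.17% in sgKmt2c line 1 and 25.0% to 58.8% in the others, and Pfkl was 56.8% there and 21.1% to 39.2% in the others.

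**Figure D2:**
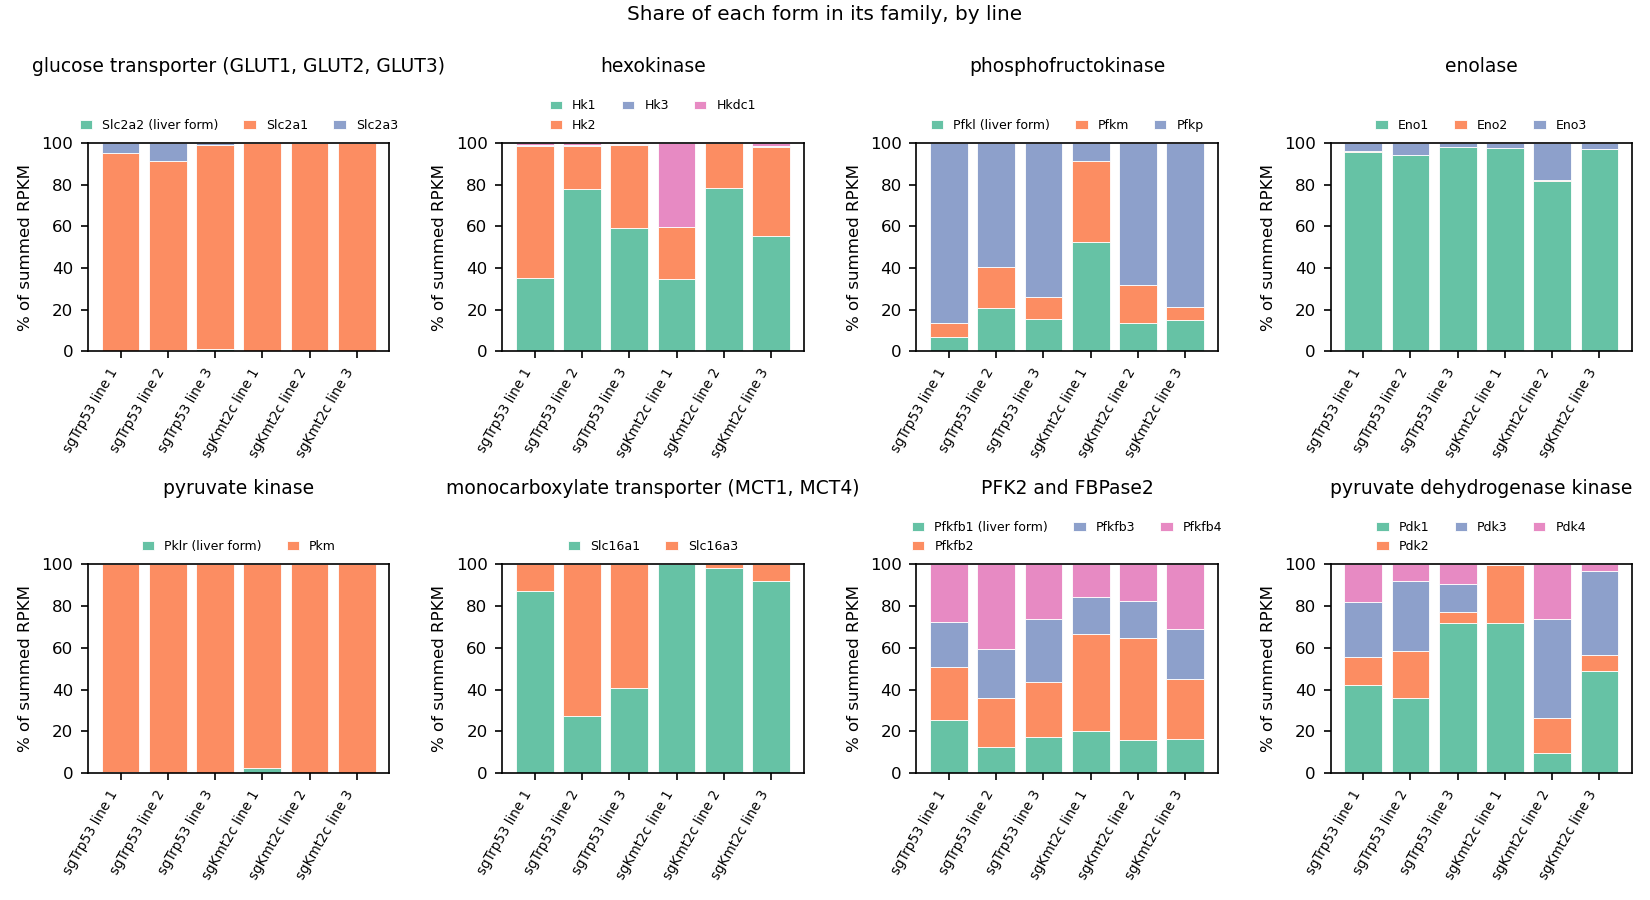
Percent of the summed RPKM of a family taken by each of the genes given here (stacked bars, deposited lengths) in the 6 lines, for 8 families, with the liver form named in the legend where there is one. In sgKmt2c line 1, Hkdc1, Pfkl and a trace of Pklr take larger shares than in the other 5 lines, and Slc16a1 takes 92.0% or more of its pair in the sgKmt2c lines.

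At the aldolase step, aldolase A (Aldoa), the form of muscle and of tumors, read 442, 501 and 426 RPKM in the sgTrp53 lines and 673, 342 and 652 RPKM in the sgKmt2c lines. Aldolase C (Aldoc), the brain form, read 1.00, 4.99 and 1.41 against 7.85, 1.95 and 1.76 RPKM. Both overlapped between the genotypes. For pyruvate kinase, Pkm, the form of most tissues and of tumors, read 1106, 1254 and 1072 RPKM in the sgTrp53 lines and 1110, 1273 and 1289 RPKM in the sgKmt2c lines, with the smallest spread between lines of any tested member (SD 0.12 on the log2 scale within genotypes). Pklr, the liver and red cell form, read 2.71, 0.135 and 1.30 RPKM against 29.6, 0 and 1.01 RPKM, or 2.60% of the pair in sgKmt2c line 1 and at most 0.244% in the other lines. A gene-level table cannot tell the M1 and M2 splice forms of Pkm apart, and Pklr overlaps the gene Hcn3.

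Of the genes of gluconeogenesis, G6pc, Pck1 and Fbp1 were at or near 0 in all lines. G6pc, the liver glucose-6-phosphatase that releases glucose, had 0 reads in all 6 lines, while its ubiquitous relative G6pc3 read 20.8 to 61.4 RPKM. Pck1, the cytosolic enzyme by which the liver makes phosphoenolpyruvate, read 0.123 RPKM in sgTrp53 line 1, 0.264 RPKM in sgKmt2c line 3 and 0 in the other 4 lines. Pck2, its mitochondrial counterpart, read 42.9, 28.4 and 35.6 RPKM in the sgTrp53 lines and 114, 43.8 and 33.1 RPKM in the sgKmt2c lines, so it made up 99.2% to 100% of the pair. Fbp1, the liver fructose bisphosphatase, had 1 read in sgTrp53 line 1 and 2 in sgKmt2c line 3 and none elsewhere, whereas Fbp2, the muscle form, read 23.1 RPKM in sgKmt2c line 1 and at most 1.59 RPKM in the other 5. Pcx, pyruvate carboxylase, read 2.02, 1.99 and 3.36 against 4.55, 1.83 and 1.47 RPKM. G6pc, Pck1 and Fbp1 were each at 0 in sgKmt2c line 1.

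The bifunctional enzymes that set the level of fructose-2,6-bisphosphate, the activator of phosphofructokinase, were all present at low levels, with no form above 49.2% of the 4 in any line by the deposited lengths. The liver form Pfkfb1 read 8.07, 4.73 and 6.51 RPKM in the sgTrp53 lines and 4.18, 6.23 and 5.12 RPKM in the sgKmt2c lines, which was 12.4% to 25.6% of the family. Pfkfb2, the heart form, read 7.95, 9.05 and 9.99 against 9.72, 19.6 and 8.89 RPKM. Pfkfb3, the inducible form known in tumors, read 6.8, 8.85 and 11.5 against 3.67, 7.06 and 7.36 RPKM. Pfkfb4 read 8.73, 15.5 and 9.97 against 3.28, 6.99 and 9.65 RPKM. The values of the genotypes overlapped for each of the 4, and with the longest lengths Pfkfb4 fell from 15.7% to 40.7% of the family to 5.50% to 15.6%. On that scale Pfkfb3 took 41.4%, 47.7% and 53.4% in the sgTrp53 lines and 33.0%, 33.5% and 45.7% in the sgKmt2c lines. It then had the largest share in every line but sgKmt2c lines 1 and 2, where Pfkfb2 led (42.2% and 45.0%).

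Enolase and lactate dehydrogenase, for which no form was set as the liver form here, were held by Eno1 (81.7% to 98.0% of the enolases) and Ldha (99.6% to 100% of the pair). The muscle enolase Eno3 ranged from 49.4 to 408 RPKM and the neuronal enolase Eno2 from 0.406 to 14.5 RPKM, and both were lowest in sgKmt2c line 1 and highest in sgKmt2c line 2. The kinases that switch off pyruvate dehydrogenase also differed between lines of 1 genotype. Pdk1 ranged from 4.81 RPKM in sgKmt2c line 2 to 50.6 RPKM in sgTrp53 line 3, and Pdk4, known from fasting, from 0 in sgKmt2c line 1 to 12.8 RPKM in sgKmt2c line 2. Pdk2 ranged from 2.81 to 9.88 RPKM. Pdk3, which is not among the 36, read 0.1 RPKM in sgKmt2c line 1 and 9.26 to 23.5 RPKM in the others.

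A fold change between the genotypes could be tested for 31 of the 36 genes, those with at least 1 RPKM in at least 3 of the 6 lines, and Slc2a2, Slc2a3, Pck1, Fbp1 and G6pc could not. None of the 31 reached an adjusted p-value under 0.05 (limma on log2(RPKM + 1), Benjamini-Hochberg over 11617 genes), while 0.129% of all genes tested did. The lowest adjusted p among the members was 0.236. An unadjusted p under 0.05 was reached by 3 members, 1 higher and 2 lower in the sgKmt2c lines, against 8.58% of all genes tested. On the log2 scale 17 members were higher and 14 lower, with a median change of 0.12 (all genes tested -0.09). The 95% interval of the change lay within a 2-fold difference in either direction for 8 of the 31 members (25.8%), against 45.9% of all genes tested. Tight intervals were those of Pkm (0.10, interval -0.35 to 0.54), Gapdh (0.12, -0.35 to 0.59) and Tpi1 (0.16, -0.32 to 0.65), 3 enzymes of the common trunk.

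The median SD between lines of 1 genotype was 0.55 on the log2 scale over the tested members and 0.37 over all genes tested. An SD above 1 was found in 6 of the 31 members (19.4%), namely Pklr, Pfkp, Slc16a3, Eno2, Pdk4 and Eno3, and in 9.81% of all genes tested. The sgKmt2c line 1 had the highest value of the 6 lines for 10 tested members and the lowest for 10, or 64.5% together, where it was at an end for 59.4% of all genes tested. The share of members at which it was extreme was near that of the genome.

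**Figure D3:**
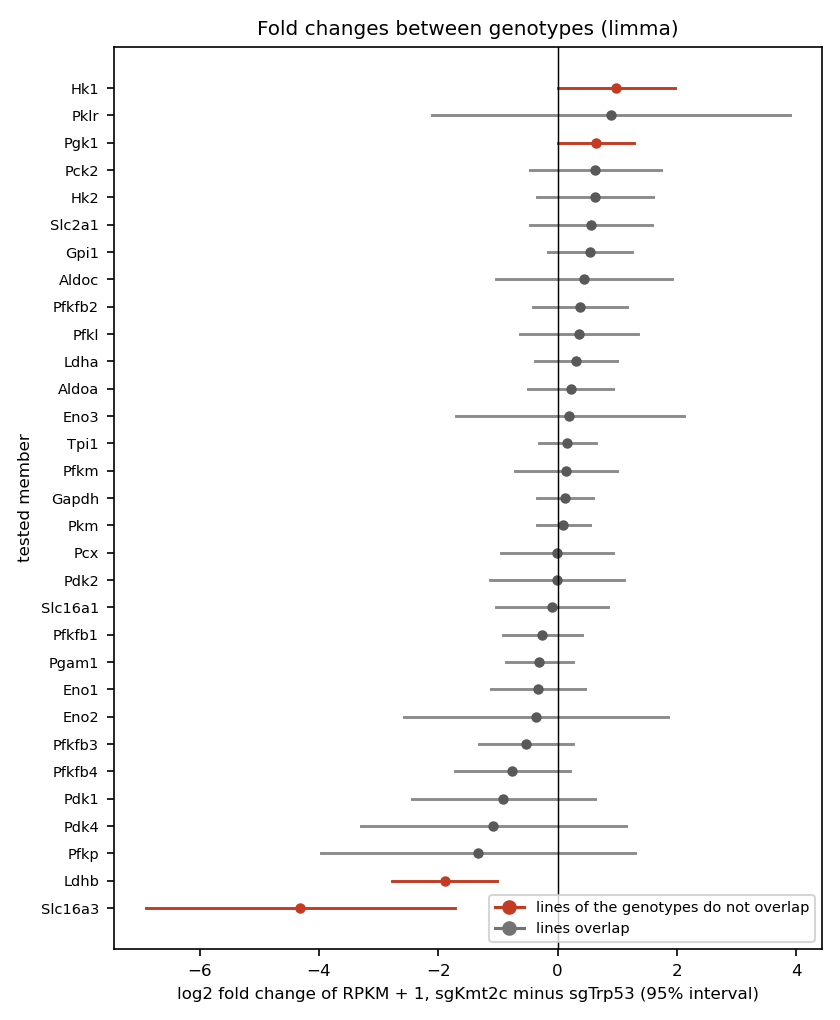
Log2 fold change of RPKM + 1 (sgKmt2c minus sgTrp53, x axis) with its 95% interval from limma for the 31 tested members (y axis), in red where the lines of the genotypes do not overlap. Only the intervals of Slc16a3, Ldhb and Pgk1 lie on 1 side of 0, that of Pgk1 just barely, and no adjusted p is under 0.05.

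For 4 tested members all lines of a genotype lay on one side of the other's, 2 higher in the sgKmt2c lines (5.72% of all genes tested) and 2 lower (10.4% of all genes tested). The 2 lower were a smaller share of the 31 tested members than the 10.4% of all genes tested. Both act on lactate, as do Ldha and Slc16a1, which overlapped. Lactate dehydrogenase B (Ldhb), the subunit known for turning lactate back to pyruvate, read 3.14, 4.18 and 4.90 RPKM in the sgTrp53 lines and 0, 0.208 and 1.08 RPKM in the sgKmt2c lines, or 25, 29 and 44 reads against 0, 1 and 6. Its log2 fold change was -1.89 (SE 0.37, unadjusted p = 0.00159, adjusted p = 0.236, limma), with an interval from -2.77 to -1.01. Slc16a3, which encodes MCT4, the exporter of lactate in glycolytic cells, read 9.38, 111 and 72.1 RPKM against 0, 0.478 and 6.38 RPKM. Its log2 fold change was -4.31 (SE 1.09, unadjusted p = 0.00598, adjusted p = 0.388, limma), and sgTrp53 line 1 lay nearer to sgKmt2c line 3 than to the other sgTrp53 lines. Both genes reached 1 RPKM in all sgTrp53 lines and in 1 sgKmt2c line, so that they entered the test mainly through the genotype in which they were high.

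Slc16a1, which encodes MCT1, the other lactate transporter, overlapped between the genotypes (65.0, 41.8 and 49.5 against 56.7, 26.3 and 73.4 RPKM), as did Ldha (1598, 1586 and 1342 against 1464, 1609 and 2760 RPKM). MCT1 therefore made up 87.4%, 27.3% and 40.7% of the MCT1 and MCT4 transcripts in the sgTrp53 lines and 100%, 98.2% and 92.0% in the sgKmt2c lines (p = 0.1, adjusted p = 0.367 over 11 families, exact two-sided permutation test, the smallest possible). With the longest lengths the sgTrp53 shares were 93.0%, 41.7% and 56.7% and those of the sgKmt2c lines 95.6% to 100%. In 2 further families the share of the form tested did not overlap, with the same p: the shares of Slc2a2 were lower and those of Ldha higher in the sgKmt2c lines. In the remaining 8 families the share of the form tested overlapped or was at 0 in every line. Among all 31 forms with shares, tested or not, 9 did not overlap, and 2 of these lay outside the families named above. Shares of a family sum to 100%, so these forms do not count separately: Ldhb mirrors Ldha, and Slc16a3 mirrors Slc16a1. Shares were not computed for other genes. By level, 5.72% of all genes tested were higher without overlap and 10.4% lower. Pfkfb2 took 25.2%, 23.7% and 26.3% of its family in the sgTrp53 lines and 46.6%, 49.2% and 28.7% in the sgKmt2c lines, and Hk3 took 0.51%, 0.462% and 0.505% against 0, 0 and 0.249% (p = 0.1 each, unadjusted, exact two-sided permutation test). The shares of Hk3 rest on 3, 3 and 5 reads against 0, 0 and 2, in sgKmt2c libraries of fewer reads.

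Some markers of white blood cells were also lower in the sgKmt2c lines. The summed level of the 8 immune markers was 46.8, 21.7 and 58.2 RPKM in the sgTrp53 lines and 6.28, 5.51 and 15.2 RPKM in the sgKmt2c lines. Lyz2 and Csf1r, 2 of the 3 immune markers that could be tested, were lower without overlap, where 10.4% of all genes tested were. Adgre1 was lower without overlap too, but on 4, 5 and 11 reads against 0, 0 and 1, and it did not pass the filter. Cd68 overlapped (7.60, 2.60 and 4.01 against 5.35, 5.29 and 1.71 RPKM). Among the sgTrp53 lines, line 2 had the lowest immune sum and the highest Slc16a3 (111 RPKM). Lyz2, the lysozyme of myeloid cells, read 29.0, 17.1 and 45.3 against 0, 0.214 and 12.4 RPKM. Ptprc, which defines white blood cells, read at most 0.0655 RPKM in any line, and Cd3e, Cd79a and Clec4f were at 0 in all 6. The 10 fibroblast and stellate markers summed to 18.7, 996 and 292 RPKM against 0.282, 156 and 121 RPKM. Dcn, 1 of them, was lower without overlap but did not pass the filter on low values. The fibroblast sum, like Slc16a3, was highest in sgTrp53 line 2 and lowest in sgKmt2c line 1 (0 RPKM for Slc16a3). Ldhb, like the immune sum, was highest in sgTrp53 line 3 (4.90 RPKM). The part of immune or fibroblast transcripts in the lower Ldhb, Slc16a3 and Slc2a3 was not tested. In bulk RNA fewer cells of a type and less RNA per cell cannot be told apart.

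The 2 tested members that were higher in every sgKmt2c line were Hk1, given above, and Pgk1, phosphoglycerate kinase, whose step makes ATP. Pgk1 read 202, 159 and 212 RPKM in the sgTrp53 lines and 404, 219 and 295 RPKM in the sgKmt2c lines. The gap between the closest lines, 212 and 219 RPKM, was small beside the spread within the sgKmt2c lines, and after rescaling to TPM sgTrp53 line 3 (401 TPM) stood above sgKmt2c line 2 (391 TPM). The log2 fold change was 0.64 for Pgk1 (SE 0.27, unadjusted p = 0.0495, adjusted p = 0.580, limma) and 0.98 for Hk1 (SE 0.41, unadjusted p = 0.0504, adjusted p = 0.583, limma). Neighboring enzymes of the trunk did not separate by genotype: Gpi1 read 142 to 260 against 205 to 337 RPKM, Gapdh 320 to 374 against 325 to 452 RPKM, Pgam1 76.8 to 97.5 against 54.9 to 90.6 RPKM and Eno1 2902 to 3642 against 1881 to 3924 RPKM.

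**Figure D4:**
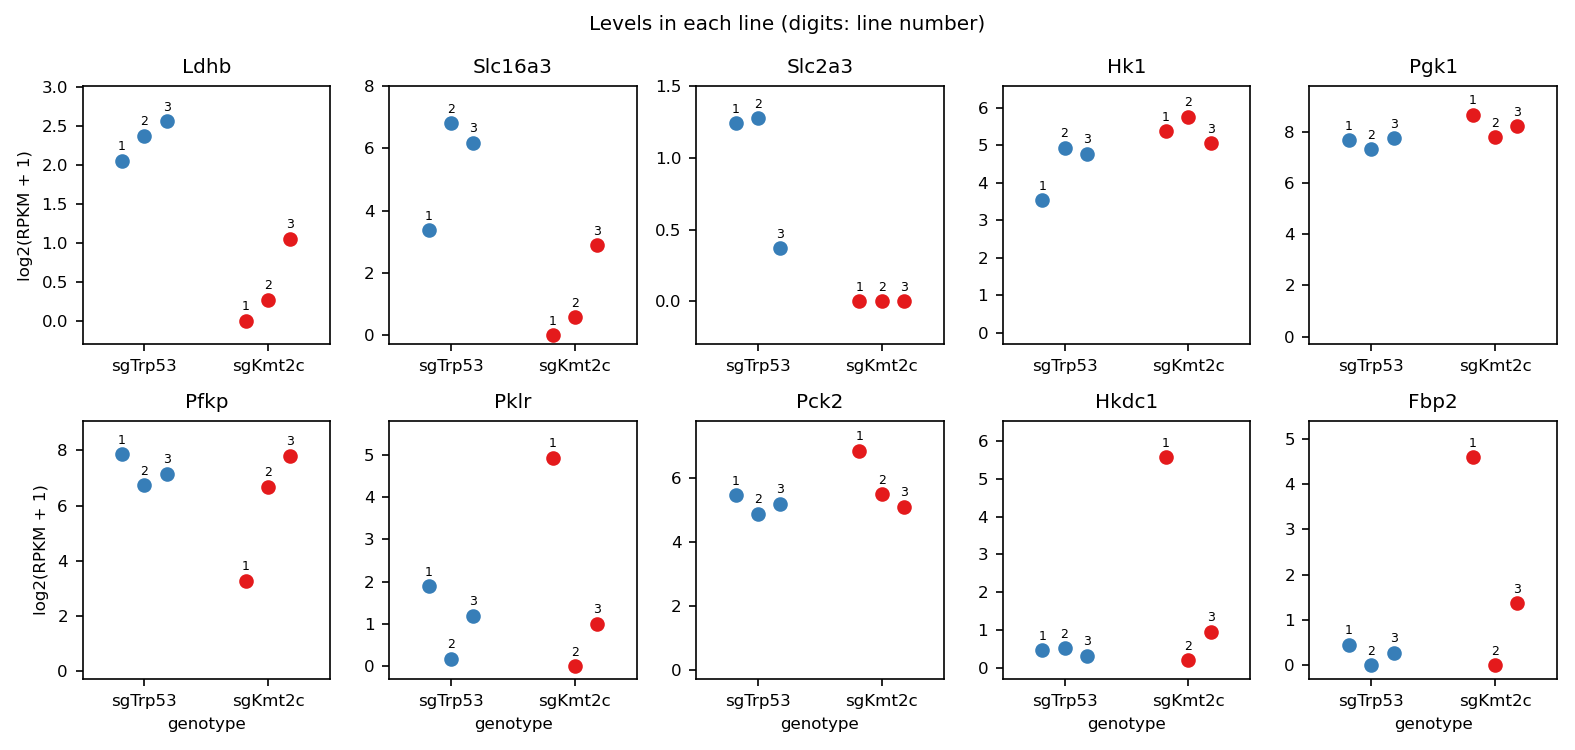
Level of 10 genes, log2(RPKM + 1), in each of the 3 sgTrp53 (blue) and 3 sgKmt2c (red) lines, with the line number at each point and a separate y axis per gene. The genotypes do not overlap for Ldhb, Slc16a3, Slc2a3, Hk1 and Pgk1, whereas Pfkp, Pklr, Pck2, Hkdc1 and Fbp2 set sgKmt2c line 1 apart from the other 5 lines.

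Few of the genes around the pathway passed a test. Of 39 further enzymes and carriers 37 were found and 29 could be tested, 19 of them higher and 10 lower in the sgKmt2c lines, with none at an adjusted p under 0.05 (limma) and 1 at an unadjusted p under 0.05. Their median log2 fold change was 0.11. The 1 gene was Taldo1, transaldolase of the pentose phosphate path, which read 49.1, 43.9 and 45.9 RPKM in the sgTrp53 lines and 117, 60.5 and 86.6 RPKM in the sgKmt2c lines (log2 fold change 0.86, SE 0.26, adjusted p = 0.461, limma). Mpc1, a subunit of the mitochondrial pyruvate carrier, read 44.4, 20.7 and 31.1 against 50.6, 66.2 and 42.6 RPKM (log2 fold change 0.75, adjusted p = 0.589, limma). Of 23 regulators 19 could be tested and Trp53 alone reached an adjusted p under 0.05 (limma), a call that was lost without any 1 line other than sgKmt2c line 1 (adjusted p = 0.0766 to 0.108) and with sgKmt2c lines 2 and 3 averaged (adjusted p = 0.104), while Crtc2, a coactivator of CREB in gluconeogenesis, changed by -0.48 on the log2 scale (SE 0.20, adjusted p = 0.580, limma). Of 12 hypoxia response genes outside the pathway 10 could be tested, 5 higher and 5 lower, with none past the adjusted threshold. Ddit4, an inhibitor of mTORC1 that is also a known p53 target, had the lowest p of them, at 30.3, 41.8 and 30.3 against 162, 43.8 and 95.4 RPKM (log2 fold change 1.36, SE 0.46, adjusted p = 0.506, limma).

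The transcription factor HNF4A, which is known to drive liver forms, was set beside some of these enzymes by line. Hnf4a read 1186 RPKM in sgKmt2c line 1, 170 RPKM in sgKmt2c line 3, 24.7, 3.49 and 15.8 RPKM in the sgTrp53 lines and 0.629 RPKM in sgKmt2c line 2. The deposited length of Hnf4a is 431 bases, and with the longest transcript of 4362 bases the values were 117 and 16.8 RPKM in sgKmt2c lines 1 and 3, 2.44, 0.345 and 1.56 RPKM in the sgTrp53 lines and 0.0622 RPKM in sgKmt2c line 2. The muscle form Fbp2 was highest in sgKmt2c line 1, second in sgKmt2c line 3 and at 0 in sgKmt2c line 2 and sgTrp53 line 2. This is a description over 6 lines that differ in much else. Pklr was highest in sgKmt2c line 1 too, but sgTrp53 lines 1 and 3 came before sgKmt2c line 3. Of the other liver forms, Pfkl was highest in sgKmt2c line 1 (51.0 RPKM) and Pfkfb1 lowest (4.18 RPKM). G6pc, Pck1 and Fbp1 had 0 reads in that line and Slc2a2 had 1. A tie of Hnf4a to these forms was not tested. The HIF2 alpha gene Epas1 (26.1 RPKM against 0.142 to 0.613) and Vegfa (121 RPKM against 6.38 to 25.7) stood highest in sgKmt2c line 1. Hif1a was highest there too, at 99.3 RPKM against 28.6 to 55.2 RPKM in the others. Among the hypoxia response genes, Egln3, Ndrg1 and Ddit4 were also highest in that line, while P4ha1 (11.2 RPKM) and P4ha2 (1.78 RPKM) were lowest. These values come from a single line, have no replicate, and carry no test.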

How the data were processed

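RNA was sequenced from 6 liver tumor lines, 3 per genotype, run on the same lanes of a single flow cell. Group and line number came from the sample titles. Reads had been trimmed (Trimmomatic), mapped to GRCm38 (STAR) and assigned to genes (HTSeq) by the authors, whose deposited unit is RPKM, named FPKM in their methods. The deposited table names a single transcript length per gene. Some genes of these families are not reported here. Its 6 columns of other samples were not used, nor was the authors' table of a DESeq2 comparison (1.8.2 in the submitters' notes), which holds fold changes and p-values. Of 21065 rows, 209 carry no values.

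RPKM times length came out whole for 100% of values (largest deviation 6.27e-06 of a read), and these reads gave the depths. Depth intervals and floors cover counting error only. Genotypes were compared by limma (3.58.1, R 4.3.3) fitted to log2(RPKM + 1), moderated along a mean-variance trend and with genotype as the only term, over 11617 genes with at least 1 RPKM in at least 3 libraries, with Benjamini-Hochberg adjustment. Fold changes on this scale understate the change of low genes. Since the values are RPKM, no count model was the main test. Shares were tested by exact two-sided permutation. A fold against lines with at most 3 reads each was computed against 3 reads per library. The test was run on simulated reads that had only large changes and the same preset spread for every gene. That check does not cover smaller changes or genes that vary more between lines. Members, families, marker lists and motifs were chosen with earlier results of these data known. All members were named, values in every line were given for members that do not overlap between genotypes, have an unadjusted p under 0.05 or belong to a family with a liver form, and of other genes the families' forms and the 5 with the lowest p were named. Hnf4a, Epas1, Vegfa, Hif1a, Egln3, Ndrg1, P4ha1, P4ha2 and the markers given by name were chosen after their values were seen. The p-values measure the spread between these lines, which the study calls independent. Use of strand in counting is not given in the sources used here. Shares and levels with the longest protein-coding transcript of GENCODE vM1, matched by Ensembl ID, were an addition made with the data in view. Figures were made in matplotlib 3.10.9.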

Additional observations from a re-analysis of the deposited data

How the results depend on the processing

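No member reached an adjusted p under 0.05 under any of the 13 alternatives run (another pseudocount, no filter, TPM or median-of-ratios scaling, limma voom on recovered reads, the replicate block, each line left out, and sgKmt2c lines 2 and 3 averaged). The log2 fold change kept its direction under all 13 for Ldhb (-3.75 to -1.67, adjusted p 0.166 to 0.879, limma), Slc16a3 (-6.33 to -3.63, adjusted p 0.208 to 0.922), Hk1 (0.54 to 1.24) and Pgk1 (0.42 to 0.86), and the median of the members lay between -0.01 (without sgKmt2c line 1) and 0.20. Members with an unadjusted p under 0.05 numbered 5 with the replicate block and 2 to 7 with a line left out, 7 without sgKmt2c line 2 and 5 without sgKmt2c line 3. Same-numbered lines come from different mice and share only a number: their deviations correlated at 0.192, 0.399 and 0.0316. Among the other pathway genes, regulators and hypoxia genes the 1 adjusted call, Trp53, became 0 with the replicate block (adjusted p = 0.0771, limma) and ranged from 0 to 1 with a line left out, and its unadjusted calls numbered 3 with the replicate block and 4 to 7 with a line left out (7 without sgKmt2c line 2). Members higher in every sgKmt2c line numbered 1 under TPM scaling, 4 with sgKmt2c lines 2 and 3 averaged, and 2 to 7 with a line left out, which shrinks a group (7 without sgKmt2c line 2, 6 without sgKmt2c line 1, 4 without sgTrp53 line 2). Those lower numbered 2 to 6 (6 without sgKmt2c line 3, 4 without sgKmt2c line 2 or sgTrp53 line 1). The difference in mean share, sgKmt2c minus sgTrp53 in percentage points, changed sign for Hk1 by reads without length (0.376) and with a line left out for Hk1 (-12.3 to 9.32), Pfkl (-0.0519 to 19.4), Eno1 (-6.65 to 1.38), Pklr (-0.0864 to 1.21), Pfkfb1 (-3.97 to 2.62) and Pdk1 (-20.8 to 10.4). The cause of these changes was not tested. With 3 lines per genotype no exact test can go below 0.1, and a member at 0 reads in a library is not shown to be absent.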
